A study of Saccharomyces cerevisiae with 21 samples.

Results

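The genes described here are the yeast ribosome assembly genes whose symbol is UTP, NOP or RRP followed by a number. In the count table of 7122 genes, 53 symbols matched this rule, 18 UTP, 17 NOP and 18 RRP genes. All 53 had enough counts to be tested, with 114 to 15867 counts per gene and library. UTP stands for U3 protein, NOP for nucleolar protein and RRP for ribosomal RNA processing. The symbols record how the genes were named, so the group is not the whole pathway, and the other assembly factors are given below as separate lists.

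RNA sequencing measured mRNA levels in 7 strains of Saccharomyces cerevisiae, with 3 libraries each, in a study of how lipid saturation is sensed at the inner nuclear membrane. Mga2 is a membrane-bound transcription factor that activates OLE1, which encodes the fatty acid desaturase, and Ino4 activates phospholipid synthesis genes. Wild-type (BY4741), mga2Δ and ino4Δ cells carried no plasmid and grew in complete synthetic medium. The other 4 strains carried a pRS316 plasmid with a GPD promoter, which is strong and constitutive, and grew in medium lacking uracil. OLE1 denotes wild-type cells with Ole1 on the plasmid, and MGA2 and mga2ΔTM denote mga2Δ cells with full-length Mga2 or Mga2 without its transmembrane helix. The strain ino4Δ mga2ΔTM is ino4Δ with the Mga2ΔTM plasmid, and it keeps its chromosomal MGA2. All plasmid proteins were tagged with mCherry. There was no wild-type strain with an empty plasmid, so in a comparison of a plasmid strain with a strain that carries none, the overexpressed protein, the plasmid and the medium cannot be told apart. The labels number the libraries of a strain from 1 to 3 and do not say that they came from separate cultures, so p-values measure the spread between these libraries.

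Libraries held 12552418 to 18372240 counts. The engineered genes followed the labels. MGA2 mRNA was at 0.42 to 0.595 CPM (counts scaled by TMM to a common library size) in mga2Δ and at 168 to 195 CPM in wild-type. INO4 mRNA was at 0.648 to 1.63 CPM in the 6 libraries with the ino4 deletion and at 9.07 to 12.8 CPM in wild-type. Differences were tested with edgeR's quasi-likelihood test with Benjamini-Hochberg adjustment over 6164 genes, and a gene was called higher or lower at a fold change above 1.5 and an adjusted p below 0.05.

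Ribosome assembly starts in the nucleolus, where RNA polymerase I transcribes the long precursor of the ribosomal RNAs. The small subunit processome, built around the U3 small nucleolar RNA, forms on the nascent precursor. UtpA (also called t-Utp), UtpB and UtpC are its preassembled protein modules. Box C/D small nucleolar ribonucleoproteins (snoRNPs) guide methylation of the precursor and box H/ACA snoRNPs guide its pseudouridylation. Pre-60S factors fold and process the part that becomes the large subunit, and the exosome trims RNA ends and degrades by-products. Transcription of most of these genes is known to rise with growth rate and to fall under stress, and their promoters often hold a pair of short elements called PAC and RRPE.

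These elements were searched for in the 300 bases before each start codon, as GCGATGAG for PAC and AAAAATTT for RRPE, on both strands. The 8-letter matches were read from the RefSeq sequence of assembly R64. PAC was found in 23 of 53 members (43.4%) and in 4.05% of 6001 nuclear protein-coding genes. RRPE was found in 40 members (75.5%) and in 15.1% of those genes. Both were present in 19 members (35.8%) and in 2.37% of all. The median distance from the last base of the match to the start codon was 117 bases for PAC and 127 bases for RRPE. Windows of 30 bases are shown for members described below, with the match in capitals and the sequence on the strand of the gene. The first set shows PAC in members that were lower in ino4Δ (NOP7, NOP13 and RRP12), in UTP10, which had the highest level per kb of UtpA, and in RRP8. The NOP7 and RRP8 windows also hold an RRPE match next to PAC, and in RRP12 the PAC match lies on the opposite strand.
NOP7, chrVII:695275-695304, plus strand: gaaaattttttGCGATGAGatgagatgaga
NOP13, chrXIV:308695-308724, minus strand: aagaaaaaattGCGATGAGcatagatgata
RRP12, chrXVI:529548-529577, plus strand: tatcatctcatCTCATCGCgcaattagaac
UTP10, chrX:217393-217422, minus strand: attttcagttaGCGATGAGctagatatttt
RRP8, chrIV:611973-612002, plus strand: tgaaaaattttGCGATGAGctcaaaataag

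The second set shows RRPE in members that were lower in ino4Δ and in which no exact PAC match was found in the window searched. These are NOP1, RRP5, NOP4, UTP23 and UTP4. The RRP5 window holds another RRPE match, left in lower case, and the NOP1 window an overlapping one on the opposite strand. The UTP4 match ended 27 bases before the start codon, the shortest distance among the RRPE matches of the members.
NOP1, chrIV:427127-427156, plus strand: tctttttcttgAAAAATTTttcaaattgga
RRP5, chrXIII:731282-731311, minus strand: ttctgattccgAAAAATTTtgaaaaatttt
NOP4, chrXVI:469789-469818, plus strand: aattttcactgAAAAATTTcaagagtctat
UTP23, chrXV:333470-333499, plus strand: tcttcgggaagAAAAATTTtcaagatgtca
UTP4, chrIV:1116779-1116808, minus strand: aaaaccaaatgAAAAATTTtcagactgaca

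All 53 genes have a single coding exon, and they lie on 14 chromosomes. None overlaps another gene of the RefSeq annotation. The count table however also lists dubious open reading frames that overlap 8 members, RRP17, RRP14, NOP56, NOP13, NOP58, NOP4, RRP9 and RRP15. The strand setting of the counting is not stated, so the values of these 8 genes are less certain.

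In wild-type cells the mRNA levels per kb of coding length spanned from 9.42 ± 1.89 CPM per kb (mean ± SD, n = 3) for NOP8, an early pre-60S factor, to 506 ± 76.1 for NOP10. NOP10 encodes the only box H/ACA snoRNP protein of the group, in 177 bases of coding sequence, so its value rests on a short gene. The box C/D proteins came next. NOP56 was at 471 ± 62.9 CPM per kb, NOP1, which encodes the methyltransferase fibrillarin, at 326 ± 59.9, and NOP58 at 223 ± 35.1. RRP9, the U3-specific protein of the same class, was at 65.4 ± 13.3. NOP10 and NOP56 did not differ beyond their spread, whereas NOP1 lay below both by more than 1 SD of each.

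Of the processome modules, UtpA and UtpB had similar medians and UtpC a higher one. The medians were 60.9 CPM per kb for the 6 UtpA genes, 52.5 for the 4 UtpB genes and 94.8 for both UtpC genes. UTP10 (110 ± 21.8) led UtpA, UTP13 (65.4 ± 13.1) led UtpB and RRP7 (100 ± 5.14) led UtpC. Among the 15 other processome factors, RRP5, an RNA-binding protein needed for both subunits, was highest at 178 ± 25.9 CPM per kb, and RRP36 lowest at 15.7 ± 4.75. NOP7, which acts with Erb1 and Ytm1 in pre-60S particles, led the 14 pre-60S factors at 184 ± 43.7. The 7 exosome genes spanned a narrow range, from 43.8 for RRP43 to 83.3 for RRP42.

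**Figure D1:**
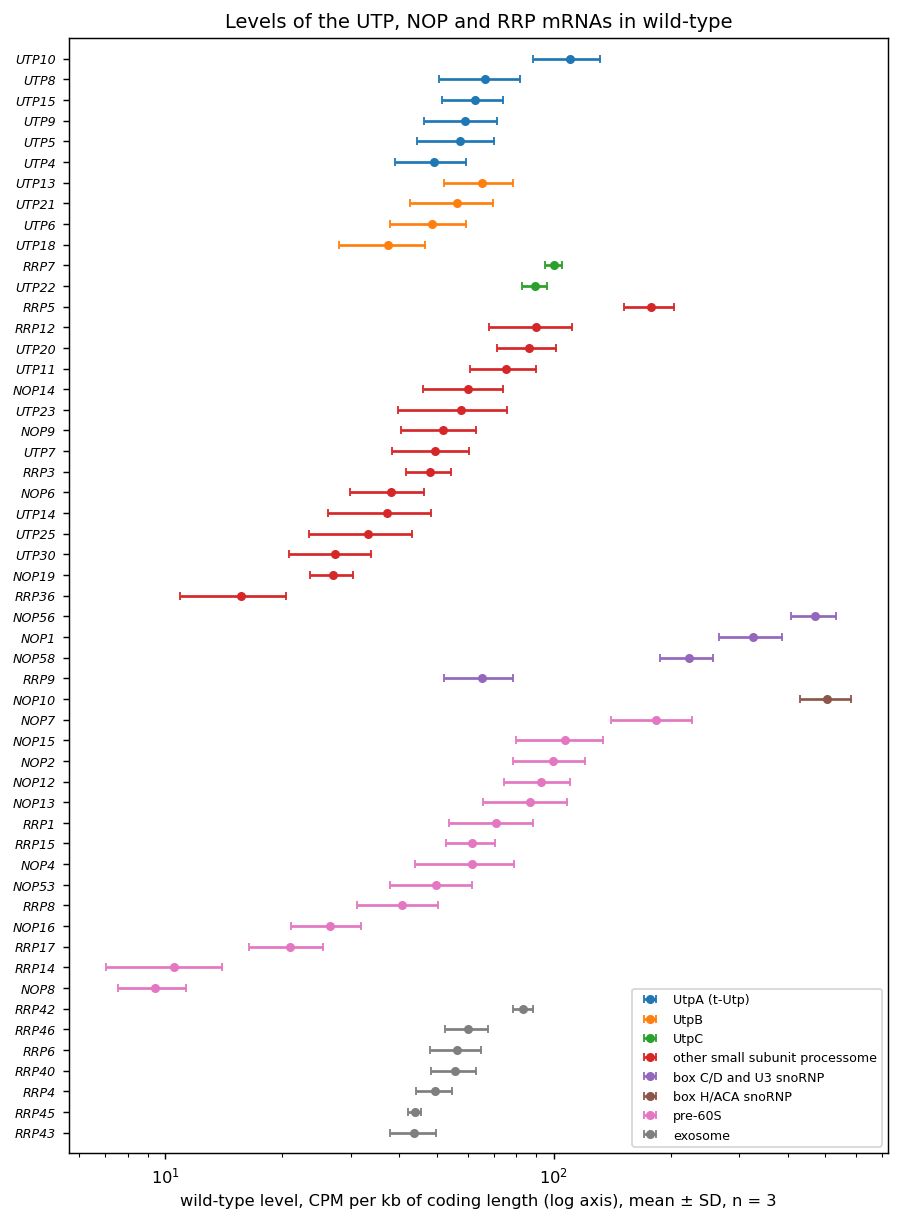
Wild-type levels of the 53 mRNAs in CPM per kb of coding length on a log axis, as mean ± SD of 3 libraries, grouped and coloured by role. NOP10, NOP56, NOP1 and NOP58 have the highest levels, and the 7 exosome genes lie between 43.8 and 83.3 CPM per kb.

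Before strains are compared, the libraries of each strain need to be compared, because the 53 genes moved together between the libraries of wild-type and of mga2Δ. The mean log2 CPM of the members was 6.63, 6.09 and 6.53 in wild-type libraries 1 to 3, and 6.40, 5.89 and 5.87 in those of mga2Δ. Wild-type library 2 was the lowest of its strain for 53 of 53 members, by a median of 1.44-fold. Library 1 of mga2Δ was the highest of its strain for 51 of 53 members, by a median of 1.47-fold. In the other 5 strains the range of the mean was 0.095 to 0.274 on the log2 scale, against 0.543 in wild-type and 0.535 in mga2Δ. Both of these libraries therefore narrow the difference between mga2Δ and wild-type.

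The 23 general stress genes, a list of Msn2/4-type targets such as HSP26 and GRE1, moved the opposite way in the same libraries. They were highest in wild-type library 2 for 22 of 23 genes, by a median of 1.86-fold, and lowest in mga2Δ library 1 for 22 of 23, by a median of 1.52-fold. The 138 ribosomal protein genes differed little in wild-type library 2 (median 1.05-fold) and were higher in mga2Δ library 1 (median 1.22-fold). Whether the stress genes and the members shifted for a shared reason was not tested. The counts of called members that rest on either library are given with and without it.

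**Figure D2:**
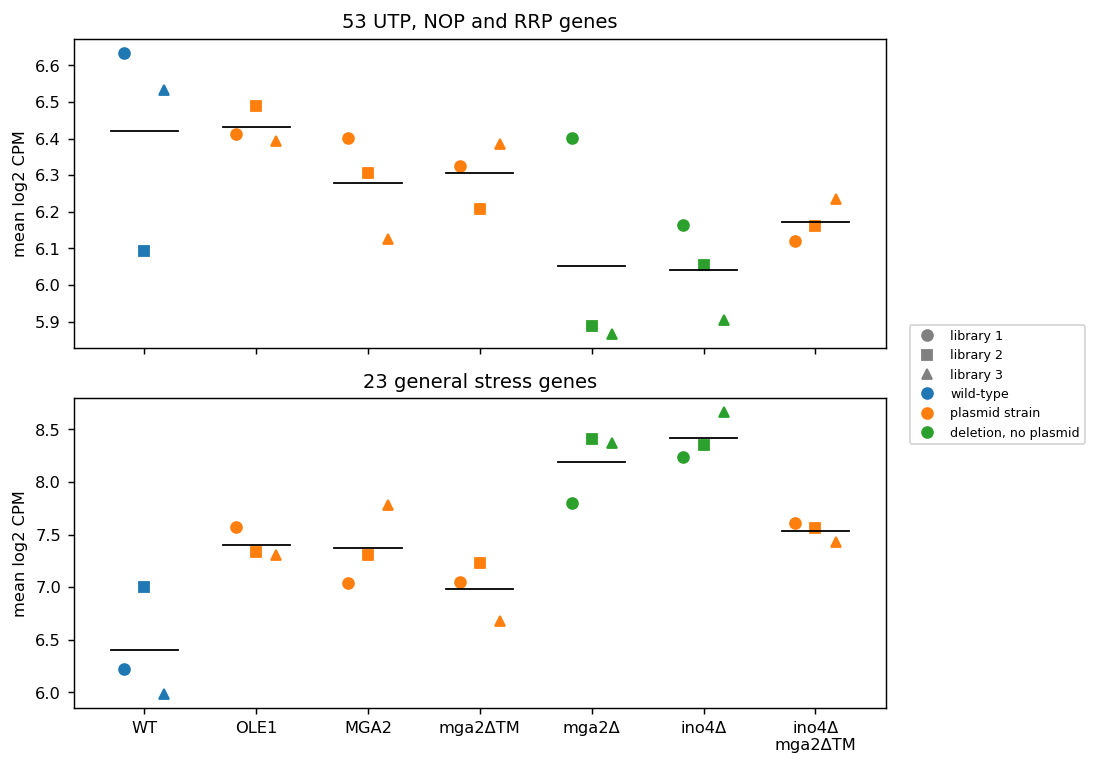
Mean log2 CPM of the 53 members (top) and of 23 general stress genes (bottom) in each of 21 libraries, with the library number as marker shape and a bar at the strain mean. Wild-type library 2 (6.09) lies below the other wild-type libraries and mga2Δ library 1 (6.40) above the other mga2Δ libraries in the top panel, and both take the opposite position in the bottom panel.

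In ino4Δ cells, 10 of 53 members (18.9%) were lower than in wild-type and 0 were higher, against 10.1% lower and 19.2% higher among all genes tested. The 10 genes were NOP1, RRP5, UTP23, NOP7, NOP58, NOP4, RRP9, NOP13, RRP12 and UTP4, so they came from the box C/D, pre-60S, UtpA and other processome classes. By adjusted p at any fold, 29 members (54.7%) were lower and 0 higher, against 28.2% of all genes lower. The median log2 fold change of the members was -0.42, against 0.03 for all genes tested, and 50 of 53 members had a negative value. In 18 members (34.0%) all 3 ino4Δ libraries lay below all 3 wild-type libraries, against 28.7% of all genes.

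NOP1 had the lowest fold change of all members. Its level was 364, 254 and 345 CPM in wild-type and 192, 183 and 147 CPM in ino4Δ. The groups do not overlap, and the mean was 1.85-fold lower (log2 fold change -0.89, SE 0.18, adjusted p 0.000374). NOP58 was at 384, 281 and 361 CPM in wild-type and at 252, 210 and 179 CPM in ino4Δ, 1.60-fold lower without overlap (adjusted p 0.00206). RRP9 fell from 133, 88.0 and 117 CPM to 74.9, 72.6 and 69.2 CPM, 1.56-fold (adjusted p 0.000636). The fourth box C/D gene, NOP56, was 1.41-fold lower with an adjusted p of 0.00595, below the fold limit. In this class, 3 of 4 genes were thus called, and the libraries of all 4 were without overlap.

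Among the other processome factors, 3 of 15 genes were lower. RRP5 was at 993, 769 and 1010 CPM in wild-type and at 634, 556 and 402 CPM in ino4Δ, 1.74-fold lower without overlap (log2 fold change -0.80, SE 0.18, adjusted p 0.00117). UTP23, needed to release the snR30 RNA from early particles, was at 49.4, 28.5 and 54.6 CPM in wild-type and at 30.1, 26.7 and 21.2 CPM in ino4Δ. Wild-type library 2 lies within the ino4Δ range of UTP23, and the mean was 1.70-fold lower (adjusted p 0.00841). RRP12, which acts in the export of pre-ribosomes, was 1.54-fold lower with overlapping libraries (adjusted p 0.0246).

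Of the 14 pre-60S factors, 3 were lower in ino4Δ. NOP7 was at 369, 243 and 391 CPM in wild-type and at 232, 215 and 150 CPM in ino4Δ, 1.68-fold lower (adjusted p 0.00599). NOP4 was 1.59-fold lower (adjusted p 0.00545) and NOP13, also an RNA-binding protein, 1.56-fold lower (adjusted p 0.00471), both without overlap. Of UtpA, UTP4 was called, at 131, 87.4 and 126 CPM in wild-type and 82.1, 76.4 and 64.6 CPM in ino4Δ (1.54-fold lower, adjusted p 0.0135). The other 5 UtpA genes had log2 fold changes from -0.56 to -0.46, so the class as a whole had a median of -0.53.

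The exosome class stood at the other end of the order. Of its 7 genes, 0 were called by fold and adjusted p and 2 passed the adjusted p alone, and the median log2 fold change was -0.13. RRP46, a subunit of the exosome ring, had the highest value of all members. It was at 45.7, 35.3 and 40.2 CPM in wild-type and at 43.0, 42.5 and 39.8 CPM in ino4Δ (log2 fold change 0.05, SE 0.09, adjusted p 0.679). A class median beside another is a description, and the difference between classes was not tested.

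The ino4Δ count depended on single wild-type libraries and on the scaling. Without wild-type library 2 it was 28 members, while calls of lower genes over all genes went from 620 to 766, and without wild-type library 1 or 3 it was 5 or 6. Without ino4Δ library 1 it was 19. Scaling by library totals alone gave 2, and moved the median of all genes by 0.22 on the log2 scale, so that the members lay 0.45 below that median. Calls over all genes went from 620 lower and 1185 higher to 258 lower and 1682 higher under this scaling.

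**Figure D3:**
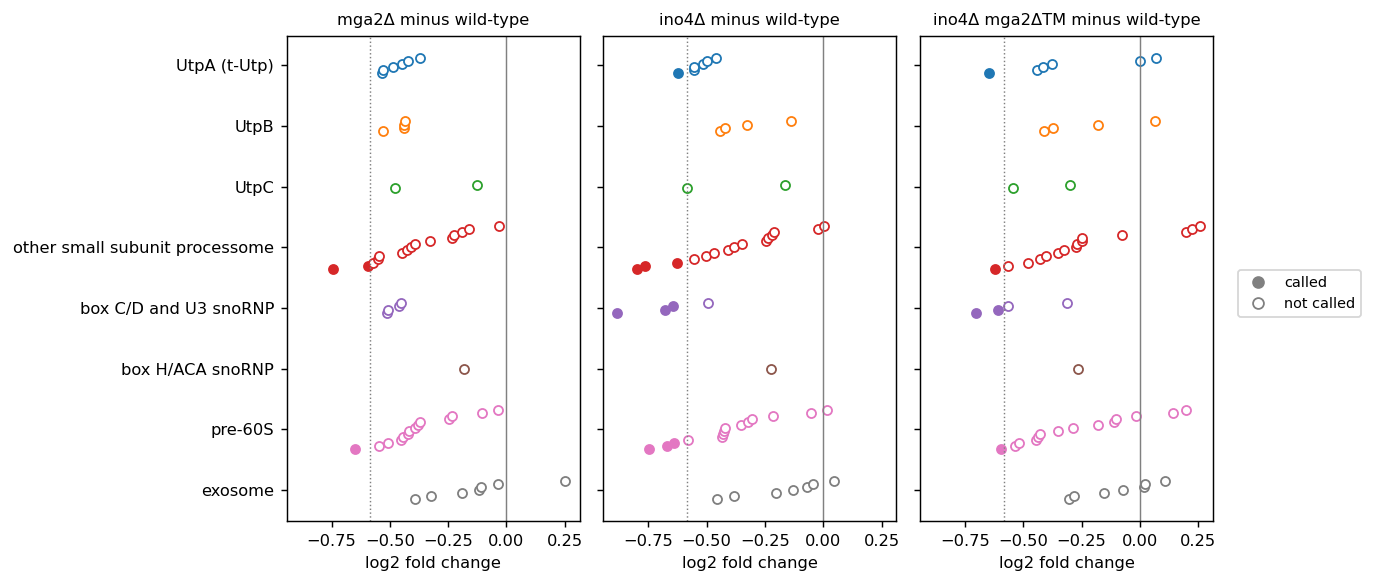
Log2 fold change of each of the 53 members against wild-type in mga2Δ, ino4Δ and ino4Δ mga2ΔTM, by role class, with filled points for called genes and a dotted line at the 1.5-fold limit. Most points lie to the left of 0, with 3, 10 and 5 called. The exosome class has the median closest to 0 in each strain, though its genes reach -0.46 in ino4Δ.

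In mga2Δ cells, 3 of 53 members (5.66%) were lower than in wild-type and 0 were higher, against 2.38% lower and 9.52% higher among all genes tested. They were UTP23, NOP7 and RRP5. By adjusted p at any fold, 25 members (47.2%) were lower, against 19% of all genes, and 1 was higher. The median log2 fold change of the members was -0.42, against 0.01 for all genes, and 52 of 53 members had a negative value. In 2 members (3.77%) all mga2Δ libraries lay below all wild-type libraries, against 19.5% of all genes, since mga2Δ library 1 exceeded wild-type library 2 for most members.

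UTP23 had the lowest value, at 38.7, 21.6 and 19.1 CPM in mga2Δ against 49.4, 28.5 and 54.6 CPM in wild-type. Library 1 of mga2Δ lies above wild-type library 2 here, and the mean was 1.67-fold lower (log2 fold change -0.74, SE 0.23, adjusted p 0.0177). NOP7 was at 302, 168 and 168 CPM in mga2Δ, 1.57-fold lower (adjusted p 0.023). RRP5 was at 827, 496 and 513 CPM, 1.51-fold lower (adjusted p 0.0168). In all 3 genes the groups overlap only through wild-type library 2 and mga2Δ library 1.

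This count depended on single libraries. It was 27 without wild-type library 2, 30 without mga2Δ library 1 and 40 without both, with a median of -0.80 in that last fit. Over all genes the calls of lower genes also rose, from 147 to 343, 482 and 632 in the same order. The 2 libraries were doubted for the members' own levels, after the values were seen, so these counts are a description. Without wild-type library 1 or 3, or without mga2Δ library 2 or 3, 0 members were called. A fit of wild-type and mga2Δ alone also called 0, and scaling by library totals called 1, with calls over all genes moving from 147 lower and 587 higher to 74 lower and 743 higher. The direction of the median was negative in each of these fits.

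By class, the 4 box C/D genes all passed the adjusted p in mga2Δ, at log2 fold changes of -0.51 to -0.45, below the fold limit. Of the 6 UtpA genes 5 passed it, with a median of -0.47. Of the 15 other processome factors and the 14 pre-60S factors 6 each passed it. The exosome again had the smallest median of the classes with more than 1 gene, at -0.12.

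RRP43, a ring subunit of the exosome, was the only member above wild-type in mga2Δ. It was at 59.9, 46.8 and 48.9 CPM in wild-type and at 62.8, 61.9 and 60.8 CPM in mga2Δ, so the groups do not overlap. The difference was 1.19-fold (log2 fold change 0.25, SE 0.09, adjusted p 0.0259), below the fold limit, and its adjusted p ranged from 0.00347 to 0.192 over 18 settings. Library 1 of mga2Δ, which stood apart for the other members, lay close to its replicates for this gene. RRP43 was at 48.4, 44.3 and 40.4 CPM in MGA2 and at 41.7, 44.6 and 42.7 CPM in mga2ΔTM. Against mga2Δ it was 1.39-fold lower in MGA2 (adjusted p 0.000413) and 1.44-fold lower in mga2ΔTM (adjusted p 0.000117), and both passed the adjusted p in 18 of 18 settings. It was also 1.25-fold lower in ino4Δ than in mga2Δ (adjusted p 0.00598). These comparisons share the mga2Δ libraries.

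**Figure D4:**
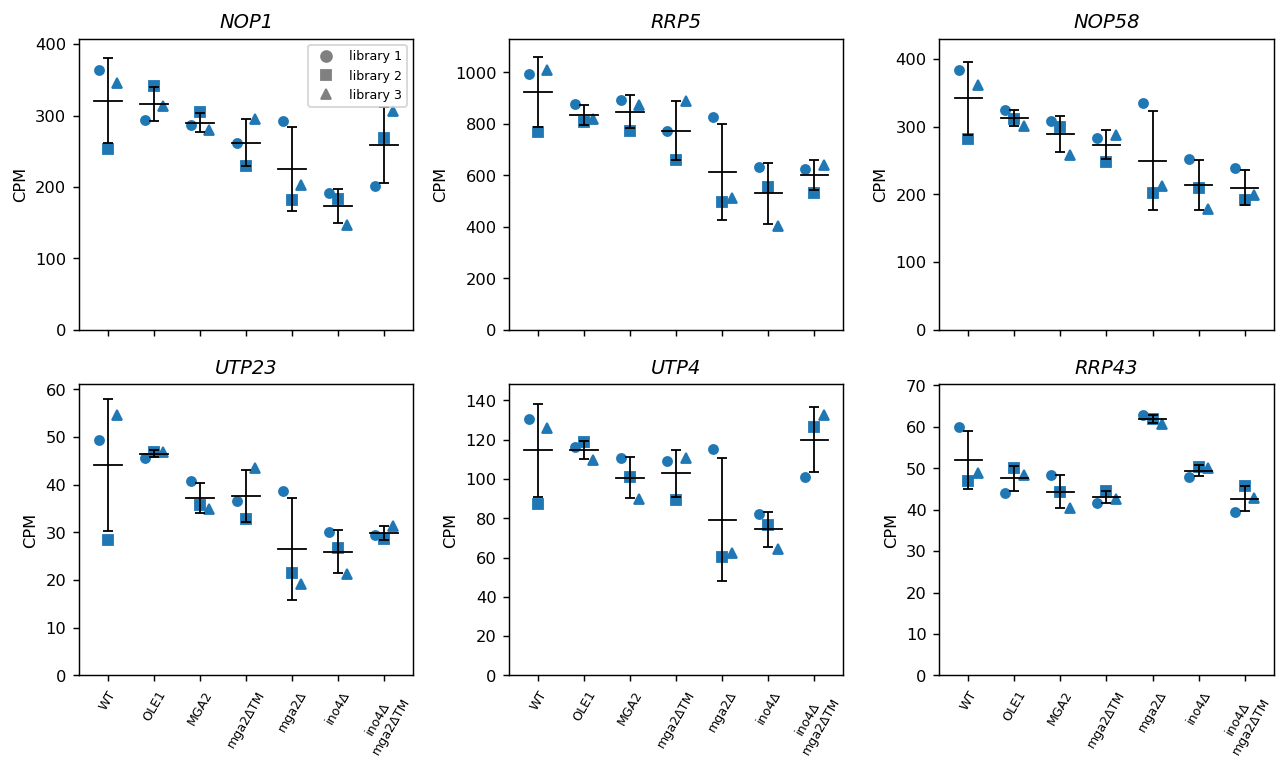
Levels of NOP1, RRP5, NOP58, UTP23, UTP4 and RRP43 in CPM in each of 21 libraries, with the library number as marker shape, a bar at the strain mean and a line of ± SD (n = 3). NOP1 is lowest in ino4Δ (147 to 192 CPM), UTP4 rises above ino4Δ in ino4Δ mga2ΔTM, and RRP43 is highest in mga2Δ (60.8 to 62.8 CPM).

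In the 3 plasmid strains that are not ino4Δ, 0 members were called against wild-type in either direction. The shares of all genes called lower and higher were 0.99% and 6.08% in OLE1, 0.552% and 3.42% in MGA2, and 1.46% and 6.49% in mga2ΔTM. In limma-voom and in DESeq2 the counts were also 0. At an unadjusted p below 0.05, 1 member was lower in OLE1, 2 in MGA2 and 6 in mga2ΔTM (1.89%, 3.77% and 11.3%), against 16%, 9.75% and 17.2% of all genes, and 0 members were higher in any of them. The median log2 fold change of the members was 0.00 in OLE1, -0.17 in MGA2 and -0.16 in mga2ΔTM. Without wild-type library 2 and mga2Δ library 1 these medians were -0.17, -0.33 and -0.34, still with 0 members called. For RRP5 the levels were 878, 806 and 820 CPM in OLE1, 895, 773 and 875 CPM in MGA2, and 773, 661 and 888 CPM in mga2ΔTM. All but the value of 661 lie within the wild-type range of 769 to 1010 CPM.

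The strains that overexpress Mga2 or Mga2ΔTM in mga2Δ cells were compared directly with mga2Δ. MGA2 mRNA was at 3360 to 4350 CPM in MGA2 and at 1200 to 1410 CPM in mga2ΔTM, against 168 to 195 CPM in wild-type. Against mga2Δ, 0 members were called in MGA2 and 0 in mga2ΔTM, while the shares of all genes called lower and higher were 6.02% and 2.86% for MGA2, and 7.27% and 5.63% for mga2ΔTM. DESeq2 also called 0 in both, and limma-voom called 1 higher in mga2ΔTM. At an unadjusted p below 0.05, 10 members (18.9%) were higher and 1 lower in each comparison, against 19.6% of all genes higher for MGA2 and 21.4% for mga2ΔTM, so these shares lay near those of all genes. The medians of the members were 0.25 for MGA2 and 0.27 for mga2ΔTM, with 46 and 50 of 53 members positive. By adjusted p at any fold, NOP10 (1.27-fold) and RRP15 (1.31-fold), a pre-60S factor, were higher in MGA2, and the processome factors NOP19 (1.29-fold) and RRP36 (1.49-fold) in mga2ΔTM. These 4 genes were picked after their values were seen. Without mga2Δ library 1, 12 members were called higher in MGA2 and 13 in mga2ΔTM, and over all genes the calls of higher genes went from 176 to 364 and from 347 to 488. Between both plasmid strains 0 members differed (mga2ΔTM against MGA2, 0.827% of all genes lower and 2.58% higher, 0 members in limma-voom and DESeq2). At an unadjusted p below 0.05, 0 members were lower and 1 higher, against 11.1% and 12.1% of all genes, and the median was 0.01.

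In ino4Δ mga2ΔTM cells, 5 of 53 members (9.43%) were lower than in wild-type and 0 were higher, against 9.3% lower and 17.9% higher among all genes. The share of members called was thus near that of all genes. By adjusted p at any fold, 20 members (37.7%) were lower, against 26.9% of all genes, and the median was -0.30. In 12 members (22.6%) the libraries lay below all wild-type libraries, against 28.2% of all genes. The genes called were NOP58, NOP56, RRP5, UTP9 and NOP4.

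NOP58 was at 239, 191 and 199 CPM in ino4Δ mga2ΔTM, below the wild-type range of 281 to 384 CPM (1.63-fold lower, adjusted p 0.00158). NOP56 was at 501, 436 and 469 CPM against 740, 609 and 794 CPM in wild-type, 1.52-fold lower (adjusted p 0.0013). UTP9, a UtpA subunit, was at 63.7, 68.9 and 62.6 CPM against 122, 78.6 and 106 CPM, 1.57-fold lower (adjusted p 0.000735). RRP5 was at 626, 533 and 640 CPM, 1.54-fold lower (adjusted p 0.0076). In these 4 genes the groups do not overlap, whereas NOP4 (1.51-fold lower, adjusted p 0.0117) overlapped. RRP7, of the UtpC module, had a smaller difference of 1.23-fold with little spread, at 73.8, 70.1 and 74.1 CPM against 93.4, 84.4 and 90.4 CPM (adjusted p 0.000144). The count was 17 without wild-type library 2 (667 lower over all genes), 2 without wild-type library 1 or 3, and 0 under scaling by library totals, where calls over all genes moved from 573 lower and 1105 higher to 309 lower and 1549 higher.

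The members on chromosome IV have to be read apart in this strain. In ino4Δ mga2ΔTM libraries 2 and 3, though not in library 1, genes all along chromosome IV were shifted up. Relative to the ino4Δ mean, the 727 genes of chromosome IV outside the group had a median of 0.38 in library 2 and 0.42 in library 3, against -0.07 in each for 4907 genes elsewhere, a ratio of 1.36-fold and 1.41-fold. In library 1 the ratio was 1.02-fold. The 11 members on chromosome IV had medians of 0.52 and 0.65 in libraries 2 and 3 and 0.11 in library 1, and the 42 other members had medians of 0.01, 0.06 and 0.10. All 11 lay above the ino4Δ mean in libraries 2 and 3, and 23 and 25 of the 42 others did. Whether these libraries carry an extra copy of the chromosome was not tested, since DNA was not analysed here. Against wild-type, the 42 members elsewhere had 5 calls (11.9%), against 10.1% of all genes off chromosome IV, and a median of -0.36, and the 11 members on it had 0 calls and a median of 0.07.

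**Figure D5:**
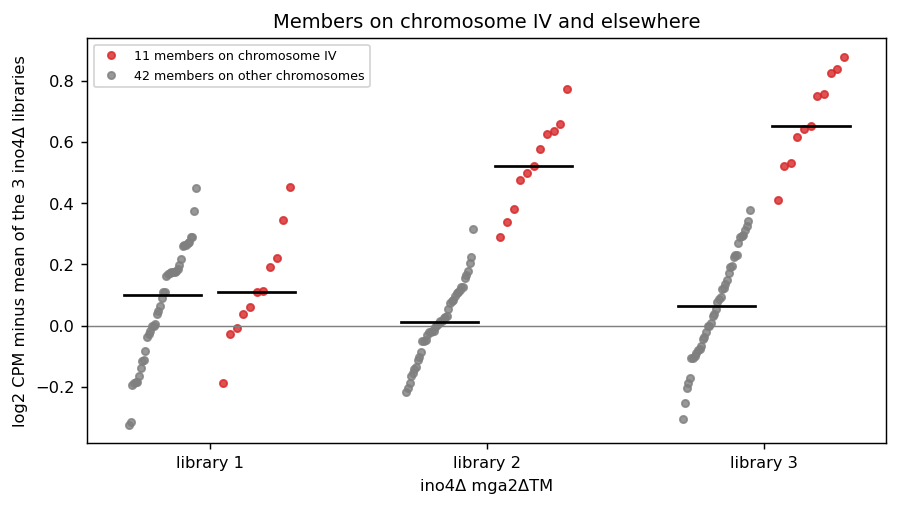
Log2 CPM of each member minus its mean in the 3 ino4Δ libraries, for each ino4Δ mga2ΔTM library, with 11 members on chromosome IV in red, 42 members elsewhere in grey and bars at the medians. The red points overlap the grey ones in library 1 and lie above most of them in libraries 2 and 3, with medians of 0.52 and 0.65.

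Against ino4Δ, 1 member (1.89%) was higher in ino4Δ mga2ΔTM and 0 were lower, against 4.3% higher and 5.16% lower among all genes. The member was UTP4, on chromosome IV, at 101, 126 and 132 CPM against 82.1, 76.4 and 64.6 CPM in ino4Δ (1.61-fold higher, SE 0.20 on the log2 scale, adjusted p 0.0167). By adjusted p at any fold 5 members were higher, UTP4, NOP1, RRP8, NOP14 and RRP45, and all lie on chromosome IV. These are 9.43% of the members against 13.7% of all genes, and 45.5% of the 11 members on chromosome IV against 45.7% of all 738 tested genes there, so the members' share was near that of the chromosome. NOP1 was at 201, 268 and 306 CPM, above the ino4Δ range of 147 to 192 CPM (1.49-fold higher, adjusted p 0.0226), and its library 1 value was the nearest to ino4Δ. RRP8, NOP14 and RRP45 were picked after their values were seen. The median was 0.46 for members on chromosome IV and 0.07 for those elsewhere. With ino4Δ mga2ΔTM libraries 2 and 3 left out, 0 members were called in either direction, in a fit where the 1 library left of this strain is assumed to vary like those of the other strains. Without ino4Δ mga2ΔTM library 3 or ino4Δ library 3 the count was also 0, and without ino4Δ mga2ΔTM library 1 it was 7. Of the other assembly genes listed below, ESF1, FAL1, TSR1 and AIR2 were the ones called higher in this comparison, and they lie on chromosome IV as well. Of the regulators, DOT6, a repressor that binds PAC, was lower in ino4Δ mga2ΔTM than in ino4Δ (log2 fold change -0.73, adjusted p 6.91e-06), and CRF1, on chromosome IV, was higher (0.68, adjusted p 0.00103). DOT6 was also lower (-0.82, adjusted p 1.1e-06) and CRF1 higher (1.62, adjusted p 1.76e-07) in mga2ΔTM than in mga2Δ. In that comparison 0 members were called, and their median was 0.265. Against wild-type, DOT6 was higher in mga2Δ (0.34, adjusted p 0.00516) and ino4Δ (0.27, adjusted p 0.0147). It was lower in mga2ΔTM (-0.47, adjusted p 0.000705) and ino4Δ mga2ΔTM (-0.47, adjusted p 0.000189). These DOT6 differences from wild-type were below the fold limit. The 23 general stress genes had a median of -0.85 in ino4Δ mga2ΔTM against ino4Δ, and 16 were lower, among them YGP1 (-1.21) and GRE1 (-0.98).

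Against mga2Δ, 0 members were called in ino4Δ, with 2.27% of all genes lower and 9.65% higher, and limma-voom and DESeq2 also called 0. At an unadjusted p below 0.05, 3 members were lower and 1 higher, against 22.4% and 22.7% of all genes. By adjusted p at any fold, RRP43 was lower and RRP46 1.18-fold higher (adjusted p 0.0482). The median was -0.02 with 31 of 53 members negative, and without mga2Δ library 1 it was 0.18 with 6 negative. The interaction set the change from ino4Δ to ino4Δ mga2ΔTM against the change from mga2Δ to mga2ΔTM. These baselines differ in MGA2 as well as in INO4, with MGA2 mRNA at 193 to 208 CPM in ino4Δ and at 0.42 to 0.595 CPM in mga2Δ. The interaction therefore cannot tell the INO4 deletion apart from the presence of chromosomal MGA2. Of the members, 0 were called, with 1.9% of all genes lower and 1.4% higher, and 0 in limma-voom and DESeq2. At an unadjusted p below 0.05, 1 member was lower and 3 were higher, against 11.4% and 10.6% of all genes. The median was -0.17, and it was 0.30 for the 11 members on chromosome IV, all positive, and -0.22 for the 42 others, of which 41 were negative. Without mga2Δ library 1 the median of all members was -0.36. Without ino4Δ mga2ΔTM library 1, 2 members were called higher.

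The other genes of the pathway came from lists that do not contain the members. Of 58 other 60S assembly factors, 6 (10.3%) were lower in mga2Δ, 13 (22.4%) in ino4Δ and 2 (3.45%) in ino4Δ mga2ΔTM, and 0 were higher. The shares of all genes lower were 2.38%, 10.1% and 9.3%, so the share in ino4Δ mga2ΔTM lay below that of all genes. The medians of these factors were -0.45, -0.45 and -0.31. In mga2Δ the genes called lower included SDA1 (log2 fold change -0.60, adjusted p 0.0146) and the helicase DBP3 (-0.59, adjusted p 0.018). In ino4Δ they included MRT4 (-0.65, adjusted p 0.000751), which holds the place of the ribosomal stalk, and URB1 (-0.65, adjusted p 0.00249). Of 33 other small subunit processome factors, 0, 2 (6.06%) and 1 (3.03%) were lower and 0, 0 and 1 higher in the same order of strains. The shares called lower lay below those of all genes in each strain. By adjusted p at any fold, 27.3%, 36.4% and 12.1% of these factors were lower, against 19%, 28.2% and 26.9% of all genes. Their medians were -0.41, -0.38 and -0.26. In ino4Δ the UtpB scaffold PWP2 (-0.66, adjusted p 0.00615) and the helicase DBP8 (-0.60, adjusted p 0.00895) were lower. In ino4Δ mga2ΔTM the gene called higher was ESF1 (0.63, adjusted p 0.000571), on chromosome IV, and the gene called lower was SNU13 (-0.59, adjusted p 0.000783), a box C/D core protein.

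The proteins that join NOP10 in box H/ACA snoRNPs are encoded by GAR1, NHP2 and CBF5. NOP10 was 1.17-fold lower in ino4Δ (adjusted p 0.0869), while GAR1 had a log2 fold change of -0.71 (adjusted p 4.88e-05) and NHP2 of -0.61 (adjusted p 0.00541), and both were called. CBF5, at -0.44, was not called. In ino4Δ mga2ΔTM, NOP10 was at -0.27, GAR1 at -0.89 (called, adjusted p 3.99e-06) and CBF5 at -0.51 (not called). NHP2 was at -0.09 there, above NOP10, but it lies on chromosome IV, which was shifted up in libraries 2 and 3 of that strain. The differences between these genes were not tested. Of 22 genes for RNA polymerase I and its factors, 2 (9.09%) were lower in mga2Δ, 7 (31.8%) in ino4Δ and 3 (13.6%) in ino4Δ mga2ΔTM, and 0 higher. The shares of all genes lower were 2.38%, 10.1% and 9.3%. RPA190 and RPA135, the largest subunits of the enzyme, were lower in mga2Δ (-0.61 and -0.59, adjusted p 0.0197 and 0.0234). In ino4Δ, RPB8 (-0.61, adjusted p 1.15e-06) and RPB5 (-0.62, adjusted p 2.9e-05), which the 3 nuclear RNA polymerases share, were lower. Among 11 other exosome and TRAMP genes, the helicase MTR4 was lower in ino4Δ (-0.63, adjusted p 0.0053) and in ino4Δ mga2ΔTM (-0.59, adjusted p 0.0084). It was the 1 gene called in each (9.09%), near the 10.1% and 9.3% of all genes. Of 13 late 40S maturation factors, 0 were called in these 3 strains, at medians of -0.29 in mga2Δ, -0.25 in ino4Δ and -0.14 in ino4Δ mga2ΔTM. By adjusted p at any fold, 23.1%, 15.4% and 7.69% of them were lower, against 19%, 28.2% and 26.9% of all genes. By the same measure 1 was higher in ino4Δ.

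The products of 138 ribosomal protein genes make up the ribosome itself. Of these genes, 9 were lower in mga2Δ (6.52%, against 5.66% of the members), 112 (81.2%) in ino4Δ and 118 (85.5%) in ino4Δ mga2ΔTM, and 0 were higher. The shares of all genes lower were 2.38%, 10.1% and 9.3%. The medians of the ribosomal protein genes were -0.47, -0.78 and -0.92. RPL15A was lower in ino4Δ (-0.76, SE 0.06, adjusted p 3.92e-09) and RPS26B in ino4Δ mga2ΔTM (-1.31, adjusted p 2.96e-10). The PAC letters were found in 1 of their 138 promoters (0.725%), and RRPE in 13.8%. The members' median was -0.42, -0.42 and -0.30 in the same strains, and -0.36 in ino4Δ mga2ΔTM for the 42 members off chromosome IV. The order of the strains thus differed between the gene groups, with mga2Δ and ino4Δ level for the members. Without wild-type library 2 and mga2Δ library 1 the members' medians were -0.80, -0.605 and -0.43. This difference in order was not tested.

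Of the 23 general stress genes, 23 (100%) were higher in mga2Δ, 22 (95.7%) in ino4Δ and 12 (52.2%) in ino4Δ mga2ΔTM. The shares of all genes higher were 9.52%, 19.2% and 17.9%, and the stress genes had medians of 1.52, 1.69 and 0.75. In OLE1, MGA2 and mga2ΔTM, 0 members were called, and their medians were 0.00, -0.17 and -0.16. There 10 stress genes (43.5%) were higher in OLE1, 11 (47.8%) in MGA2 and 4 (17.4%) in mga2ΔTM. The shares of all genes higher there were 6.08%, 3.42% and 6.49%, and the stress genes had medians of 0.77, 0.88 and 0.41. HSP26, a small heat shock protein, had a log2 fold change of 3.32 in mga2Δ, 4.58 in ino4Δ and 3.87 in ino4Δ mga2ΔTM (adjusted p at most 8.88e-10). Of the 13 regulators of ribosome genes, CRF1, a corepressor of ribosomal protein genes, was higher in mga2Δ, ino4Δ and ino4Δ mga2ΔTM (0.81, 2.31 and 2.98), from 2.18 CPM in wild-type, and lies on chromosome IV. CRF1 was also higher in OLE1 (0.59), MGA2 (0.94) and mga2ΔTM (2.43, adjusted p 3.34e-09). Of the 138 ribosomal protein genes, 0 were called in these strains. By adjusted p at any fold, 45 of them (32.6%) were lower in OLE1, 2 (1.45%) in MGA2 and 102 (73.9%) in mga2ΔTM. The shares of all genes lower by adjusted p were 9.8%, 3.5% and 11.2%. STB3, which binds RRPE, was higher in ino4Δ (0.60, adjusted p 4.67e-05). In mga2Δ and ino4Δ mga2ΔTM STB3 was at 0.54 in each (adjusted p 0.00047 and 0.000142), below the fold limit. RAP1, an activator of ribosomal protein genes, was lower in ino4Δ mga2ΔTM (-0.63, adjusted p 2.83e-07). By adjusted p, below the fold limit, RAP1 was also lower in ino4Δ (-0.51), mga2Δ (-0.35), OLE1 (-0.33) and mga2ΔTM (-0.25), with adjusted p at most 0.00984. The part of these regulators in the members' levels was not tested.

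Change and promoter letters were set side by side within the members. In mga2Δ, the 40 members with RRPE had a median log2 fold change of -0.44 and the 13 without it -0.33. In ino4Δ these medians were -0.44 and -0.32. Members with PAC and without it had medians of -0.44 and -0.41 in mga2Δ and -0.41 and -0.44 in ino4Δ. Of the 10 members called in ino4Δ, 9 held RRPE and 3 held PAC, and RRP9 held neither. The ranges overlapped in each case, from -0.89 to 0.02 with RRPE and from -0.64 to 0.05 without it in ino4Δ.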

How the data were processed

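RNA was sequenced in 21 libraries of 7 strains after rRNA depletion, with single-end reads of 50 bases. The authors aligned reads with STAR 2.5.1b to R64-1-1 and ran HTSeq 0.5.4p3 for gene-level counting, and they deposited raw counts, which were the input here. The deposited table of normalized values was not used. Of 7126 lines, 4 named no gene and were left out.

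Libraries were scaled by TMM and fitted together by robust quasi-likelihood in edgeR 4.0.16 (R 4.3.3), with 6164 genes passing filterByExpr (minimum count 10, minimum total 15). From this fit 12 comparisons were taken. The alternatives were limma-voom (limma 3.58.1), DESeq2 1.42.0, RLE size factors, library totals, other count filters, a replicate block, a fit of the compared strains, no fold limit and leaving out each library. The 21 pairs of libraries within a strain differed by more than counting noise (chi-square per gene at least 6.97). On simulated ino4Δ against wild-type libraries of 5959 genes, 24, 47, 49 and 50 of 50 genes changed by 1.5-, 2-, 3- and 4-fold were recovered, and 5 unchanged genes were called. Per-kb levels divide CPM by coding length.

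The members, gene lists and roles were chosen with earlier results of these data known. Members are named where they were among the 4 called with the smallest adjusted p and no overlap, were highest per kb in their class or had the lowest or highest change in mga2Δ or ino4Δ. All called members are listed. From each list up to 2 called genes with the smallest adjusted p are named, for mga2Δ, ino4Δ and ino4Δ mga2ΔTM against wild-type and for the latter against ino4Δ. The regulators named by this rule are also given in some other comparisons. Promoters were searched in RefSeq assembly R64. Figures were drawn with matplotlib 3.10.9.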

Additional observations from a re-analysis of the deposited data

How the results depend on the processing

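Under limma-voom, DESeq2, RLE size factors, no filter on low counts, a minimum of 1 CPM in 3 libraries and the replicate block, the counts of members lower stayed within 1.5 times in all 12 comparisons. The replicate block gave 4 lower in mga2Δ, 10 in ino4Δ and 4 in ino4Δ mga2ΔTM. On average same-numbered libraries did not pair, with a mean correlation of 0.0184 against -0.00977 for libraries with different numbers. Single correlations ranged from -0.352 to 0.448 over 63 same-numbered pairs, 20 of them above 0.1. For members higher, mga2ΔTM against mga2Δ went from 0 to 1 under limma-voom and the block, and ino4Δ mga2ΔTM against ino4Δ from 1 to 2 under DESeq2 and RLE size factors. Without the fold limit the counts lower were 25 in mga2Δ, 29 in ino4Δ, 20 in ino4Δ mga2ΔTM and 1 in mga2ΔTM against wild-type, and 1 was higher in mga2Δ. Among direct comparisons without it, 1 was lower and 1 higher for ino4Δ against mga2Δ, 1 lower and 2 higher for MGA2 and for mga2ΔTM against mga2Δ, and 5 higher for ino4Δ mga2ΔTM against ino4Δ.

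Library totals gave 1 lower in mga2Δ, 2 in ino4Δ and 0 in ino4Δ mga2ΔTM, with the median of all genes shifted by 0.094, 0.217 and 0.208. Compared strains alone gave 0 lower in mga2Δ and 3 higher for ino4Δ mga2ΔTM against ino4Δ. Leaving out 1 library gave 0 to 30 lower in mga2Δ and 5 to 28 in ino4Δ. For ino4Δ mga2ΔTM it gave 2 to 17. It gave 0 to 12 higher for MGA2 and 0 to 13 for mga2ΔTM against mga2Δ, 0 to 7 for ino4Δ mga2ΔTM against ino4Δ and 0 to 2 for the interaction. Chosen after seeing the data, leaving out wild-type 2 and mga2Δ 1 gave 40 lower in mga2Δ, 12 and 13 higher for MGA2 and mga2ΔTM against mga2Δ and 1 lower in the interaction. Leaving out ino4Δ mga2ΔTM 2 and 3, with the lone library of that strain assumed to vary like the other strains, gave 0 higher against ino4Δ, and with wild-type 2 also left out 13 were lower against wild-type. No fold change of a called, named member reversed. In the simulation, where genes varied independently, 24 of 50 genes set at the 1.5-fold limit itself were recovered.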

Other observations

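The shift of chromosome IV in ino4Δ mga2ΔTM was even along the chromosome. In 8 bins of 200000 bases with 66 to 107 tested genes each, the median log2 difference from library 1 was 0.315 to 0.383 in library 2 and 0.375 to 0.436 in library 3. Over all 21 libraries, the median of chromosome IV genes relative to each gene's own median was 0.391 and 0.436 in these libraries and between -0.0317 and 0.0205 in the other 19.

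By strain mean, 20 of 53 members were lowest in mga2Δ, 18 in ino4Δ and 11 in ino4Δ mga2ΔTM, while 19 were highest in wild-type and 21 in OLE1. The last 2 counts depend on wild-type library 2. Without it, 52 of 53 members had a negative fold change in OLE1 against wild-type, with a median of -0.17. These ranks were not counted over all genes.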
